A study of Rattus norvegicus with 8 samples.

Results

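The genes described here write and erase cytosine methylation in DNA. They were taken as the rows of the deposited gene count table whose symbol was Dnmt1, Dnmt3a, Dnmt3b, Dnmt3l, Uhrf1, Tet1, Tet2 or Tet3. Of these 8 genes, 5 had a row among the 16764 gene symbols of the table. They were the writers Dnmt1, Dnmt3a, Dnmt3b and Dnmt3l, and Uhrf1, which brings Dnmt1 to DNA. Tet1, Tet2 and Tet3 were not analysed here. All 5 writers passed the expression filter (12210 symbols passed and 4554 did not).

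Methylation of CpG sites is copied after each round of DNA replication. Uhrf1 binds CpG sites that carry the mark on the old strand only and recruits Dnmt1, the maintenance methyltransferase, which methylates the new strand. Dnmt3a and Dnmt3b place methylation on sites that had none, and Dnmt3l, which has no catalytic activity of its own, stimulates both. Tet enzymes oxidise methylcytosine, and the oxidised bases are removed by base excision repair or lost as DNA replicates. In the mouse male germ line, Dnmt3l and Dnmt3a set paternal imprints before birth. Dnmt3l also acts in silencing transposons, and its loss leads to meiotic failure.

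RNA was sequenced from 3 groups of Brown Norway rat male germ cells, each with 2 libraries. Undifferentiated spermatogonia (USg) were a spermatogonial stem cell line expanded in SG medium, which per the labels of the 2 chromatin samples contains GDNF and FGF. Differentiating spermatogonia (DSg) were the same line after 7 days on laminin, of which 120 h were in SD medium with all-trans-retinoic acid and neuregulin-1. The spermatocyte-enriched group (Spc) was not the line. It held primary testis germ cells that did not bind laminin, negatively selected on plastic, collagen-I and laminin, after 2.5 days in medium with 10% serum. No genetic change is given for any group, and no age for the donor rats. The protocol places USg RNA at day 0 before laminin, whereas the titles of USg and DSg both carry T120, so it is not settled here whether the 2 were matched for time. The line samples are called replicate cultures. Nothing says that the Spc libraries came from separate animals. The p-values rest on the spread between these samples, pooled over the groups and drawn towards that of other genes. That spread may be technical. The 2 anti-Foxa2 chromatin samples were not analysed here.

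Total counts ranged from 2657291 to 5697165 per library. The rRNA share of counts was high in DSg 1 (12.4%) and USg 1 (7.81%) and lay between 0.00377% and 0.734% in the other 4 libraries. In DSg 2, 96.7% of 1045 olfactory receptor genes, which germ cells mostly keep silent, had at least 1 count, against 23.3% to 64.1% in the other libraries. The median of these genes was 1.08 CPM (reads of a gene scaled to a common library size) in DSg 2, so values near that level in DSg 2 carry little weight. Replicates differed with an SD of 0.95 (log2) over genes in USg, 0.95 in DSg and 0.43 in Spc. The labelled cell types were checked against marker genes. Of 9 markers of undifferentiated spermatogonia 6 were lower in DSg than in USg, of 6 measured markers of differentiating spermatogonia 3 were higher in DSg than in USg, and of 9 spermatocyte markers 8 were higher in Spc than in USg. The 6 spermatid markers summed to 11.4 and 11.8 CPM in Spc, against 28.3 to 62.0 CPM in the line, most of it Spaca1, so the sum says little about spermatids in Spc. Spc also carried somatic testis RNA. The 9 Sertoli cell markers summed to 1372 and 1105 CPM in Spc, against 212 to 461 CPM in the 4 line libraries, and the 9 peritubular and stromal markers to 2716 and 2599 CPM in Spc, against 241 to 517 CPM in the line. In both Spc libraries all Sertoli and stromal markers had counts. Clu alone gave 1011 and 787 CPM of the Sertoli sums in Spc, and 168 to 381 CPM in the line. Relative to USg, 5 of 7 Sertoli markers tested and 7 of 8 stromal markers tested were called higher in Spc. Sox9 averaged 47.7 CPM in Spc and 56.4 CPM in USg, and Col1a1 averaged 157 and 214 CPM. The 4 erythroid markers summed to 181 and 144 CPM in Spc and to at most 4.85 CPM in the line. The 5 endothelial markers went the other way, with 32.9 and 44.4 CPM in Spc and 62.2 to 210 CPM in the line. The 5 Leydig markers, mostly Star in Spc, summed to 162 and 174 CPM there and to at most 15.9 CPM in the line. The 6 macrophage markers gave 74.7 and 92.3 CPM in Spc, against 26.3 to 57.1 CPM in the line. Every comparison with Spc therefore also sets primary, partly somatic material against a cultured line. The part of somatic cells, source, medium and selection in those results was not tested. In RNA from pooled cells, fewer cells of a type and less RNA per cell cannot be told apart.

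Maintenance methylation was the first function examined. Dnmt1 stood at 979 and 1249 CPM in USg, 901 and 950 CPM in DSg, and 239 and 259 CPM in Spc. Both Spc libraries lay far below all 4 line libraries, and the DSg libraries lay just below the USg ones. Group means were 1114 ± 191 CPM in USg, 925 ± 34.5 CPM in DSg and 249 ± 14.3 CPM in Spc (SD, n = 2 each). Dnmt1 fell in Spc relative to USg, with a log2 difference of -2.16 ± 0.30 (SE, edgeR adjusted p = 0.00107), the USg level being 4.47-fold that of Spc. It also fell in Spc relative to DSg (-1.89 ± 0.30, adjusted p = 0.00276). For DSg against USg the log2 difference was -0.27 ± 0.29 (adjusted p = 0.652), less than its own error, so the neighbouring levels of the 2 line states were not told apart.

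Uhrf1, the reader that guides Dnmt1, had 367 and 698 CPM in USg, 278 and 218 CPM in DSg, and 148 in each of the 2 Spc libraries (751 and 681 counts). The 3 groups did not overlap, but the USg libraries differed 1.9-fold from each other. Means were 532 ± 234 CPM in USg, 248 ± 42.8 CPM in DSg and 148 ± 0.182 CPM in Spc (SD, n = 2 each). Uhrf1 fell in Spc relative to USg, with a log2 difference of -1.85 ± 0.37 (adjusted p = 0.00527). The log2 difference of DSg from USg was -1.10 ± 0.36 (unadjusted p = 0.0137, adjusted p = 0.152) and did not pass. Its size depended on the library left out, at -1.61 ± 0.37 without USg 1 (adjusted p = 0.0168) and -0.61 ± 0.37 without USg 2 (adjusted p = 0.5). In both fits the lone USg library is assumed to vary like the other groups. Without DSg 2 the difference was -0.94 ± 0.47 (adjusted p = 0.403). The difference of Spc from DSg, -0.74 ± 0.36 (adjusted p = 0.156), did not pass with all 6 libraries but did when the 4 libraries compared were fitted alone (-0.77 ± 0.23, adjusted p = 0.0292), and it was -0.38 ± 0.45 without DSg 1 (adjusted p = 0.564). Levels thus ran from USg through DSg to Spc, with DSg not separated from either neighbour in the fit of 6 libraries.

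Among the de novo enzymes, Dnmt3a followed the same order of groups. It had 127 and 139 CPM in USg, 90.1 and 87.8 CPM in DSg, and 39.0 and 31.8 CPM in Spc. The replicates of each group stayed within 1.23-fold of each other and no 2 groups overlapped. Means were 133 ± 9.09 CPM in USg, 88.9 ± 1.64 CPM in DSg and 35.4 ± 5.12 CPM in Spc (SD, n = 2 each). Dnmt3a fell in Spc, with a log2 difference of -1.91 ± 0.31 from USg (adjusted p = 0.00194) and of -1.33 ± 0.30 from DSg (adjusted p = 0.0131). The DSg level was 66.8% of the USg level, a log2 difference of -0.58 ± 0.30 (adjusted p = 0.321) that did not pass.

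Dnmt3b, the other de novo enzyme, had its highest level in DSg. It stood at 96.5 and 121 CPM in USg, 146 and 243 CPM in DSg, and 34.9 and 47.2 CPM in Spc. Both DSg libraries were above both USg libraries, yet the 2 DSg libraries differed 1.66-fold. Means were 109 ± 17.5 CPM in USg, 195 ± 68.7 CPM in DSg and 41.1 ± 8.74 CPM in Spc (SD, n = 2 each). The DSg level was 1.79-fold the USg level, a log2 difference of 0.84 ± 0.36 (unadjusted p = 0.043, adjusted p = 0.246) that did not pass. Without DSg 2, the library with counts in most olfactory receptor genes, it was 0.43 ± 0.37 (adjusted p = 0.597). Dnmt3b fell in Spc relative to DSg, with a log2 difference of -2.25 ± 0.37 (adjusted p = 0.00326), the DSg level being 4.75-fold that of Spc. It also fell relative to USg (-1.41 ± 0.36, adjusted p = 0.017).

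Dnmt3l, the cofactor without catalytic activity, rested on few reads. Its counts were 13 and 23 in USg, 19 and 36 in DSg, and 1 and 4 in Spc, which is 5.02 and 4.10 CPM in USg, 7.68 and 9.69 CPM in DSg, and 0.197 and 0.871 CPM in Spc. Reads for the gene were thus nearly absent from both Spc libraries, and both DSg libraries were above both USg libraries. The DSg 2 value lay above the level of 2.42 CPM that 90% of olfactory receptor genes did not exceed there. Means were 4.56 ± 0.651 CPM in USg, 8.69 ± 1.43 CPM in DSg and 0.534 ± 0.476 CPM in Spc (SD, n = 2 each). Dnmt3l fell in Spc, with a log2 difference of -3.98 ± 0.84 from DSg (adjusted p = 0.00939) and of -3.04 ± 0.85 from USg (adjusted p = 0.0233). With so few Spc reads, the size of both falls is loosely fixed, as the wide errors show. The log2 difference of DSg from USg was 0.94 ± 0.69 (adjusted p = 0.493).

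**Figure D1:**
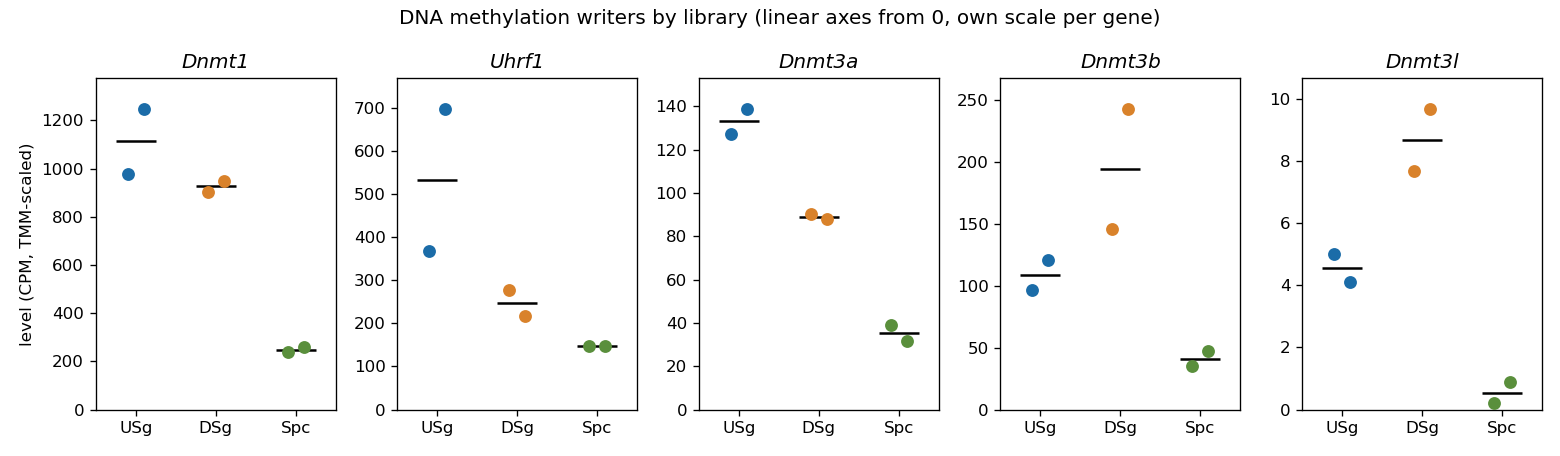
Level of each writer by library, in CPM scaled by TMM factors on linear axes that start at 0, with points for libraries and a black line for the mean of 2. The Spc libraries are the lowest for all 5 genes, while the highest group is USg for Dnmt1, Uhrf1 and Dnmt3a and DSg for Dnmt3b and Dnmt3l.

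Start regions were read for CpG density and for letters bound by E2F factors, which act on many genes of DNA synthesis. The counts carry neither feature. Sequences are printed for Dnmt1, Uhrf1 and Dnmt3a, whose highest group mean was in USg. No member passed between DSg and USg, and the members did not form separate sets by their profiles, so these genes are not taken as a group that moved together. The windows run from 250 bases before to 50 bases after the annotated start and come from RefSeq (GRCr8). Of the 5 members 4 matched, with 6 windows, 3 of them for Uhrf1. Dnmt3b had none. In the sequences below, capitals mark matches to the E2F letters TTTCCCGC, TTTGGCGC, TTTCGCGC or TTTGCCGC, searched on both strands. None of the 4 words overlaps another in these windows.
Dnmt1 (chr8:27762792-27763091, minus strand): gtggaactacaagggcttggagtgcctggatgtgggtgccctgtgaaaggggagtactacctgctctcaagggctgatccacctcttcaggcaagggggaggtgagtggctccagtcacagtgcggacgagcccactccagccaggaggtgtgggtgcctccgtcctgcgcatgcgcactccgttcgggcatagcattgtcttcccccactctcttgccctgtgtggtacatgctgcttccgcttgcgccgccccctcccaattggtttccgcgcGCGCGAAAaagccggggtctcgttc
Uhrf1 (chr9:1222936-1223235, plus strand): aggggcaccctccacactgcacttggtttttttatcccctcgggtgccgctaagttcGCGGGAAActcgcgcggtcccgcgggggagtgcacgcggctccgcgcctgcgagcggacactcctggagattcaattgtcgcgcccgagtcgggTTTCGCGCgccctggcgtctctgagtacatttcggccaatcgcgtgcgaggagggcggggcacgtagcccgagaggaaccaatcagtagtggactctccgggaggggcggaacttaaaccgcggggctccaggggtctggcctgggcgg
Dnmt3a (chr6:32598352-32598651, plus strand): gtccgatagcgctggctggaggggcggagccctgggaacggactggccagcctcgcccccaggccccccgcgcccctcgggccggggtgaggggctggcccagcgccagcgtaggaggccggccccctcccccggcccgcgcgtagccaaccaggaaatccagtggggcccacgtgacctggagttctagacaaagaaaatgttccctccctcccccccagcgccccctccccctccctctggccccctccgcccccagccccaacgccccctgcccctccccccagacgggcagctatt

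Each strand is written 5′ to 3′ as the gene is read. The Dnmt1 window held 1 match, TTTCGCGC on the opposite strand, with its first base at position 26 after the start. The Uhrf1 window printed held 2, TTTCCCGC on the opposite strand at -193 and TTTCGCGC on the gene's strand at -99. The other 2 Uhrf1 windows, Dnmt3a and Dnmt3l held none of these letters. For Uhrf1, only the window with matches was printed. Of all 33465 windows of 300 bases, 716 (2.14%) held a match. Each word searched contains a CpG, so that share is no measure for CpG-rich windows, and none was taken for windows of like CpG content. The Uhrf1 window printed had 35 CpG sites, more than 93.9% of all windows, and an observed-to-expected CpG ratio of 1.07, whereas the other 2 Uhrf1 windows had 8 (ratio 0.37) and 13 (ratio 0.49). Dnmt3a had 21 sites (ratio 0.53), Dnmt1 had 17 (ratio 0.58) and Dnmt3l 11 (ratio 0.52), against a median over all windows of 7 sites and a ratio of 0.39. A match is a description of the letters, and no binding was measured.

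The calls of the members were then read against those of the whole table. Relative to USg, 5 of 5 members were called lower in Spc and 0 higher, where 16.6% of the 12210 genes were called lower and 17.9% higher. The median log2 difference was -1.91 over the members and -0.04 over all genes tested. Relative to DSg, 4 of 5 members were called lower in Spc and 0 higher, where 11.7% of genes were called lower and 14.8% higher, and the median was -1.89 over the members and -0.03 over all genes. In that comparison the split of all calls moved with the scaling, 1806 higher and 1433 lower in the main fit, 1486 and 1925 with upper quartile scaling, and 1407 and 1681 with total-count scaling, while the members' calls stayed at 4. Both comparisons share the Spc libraries, so they are not separate evidence. In DSg relative to USg, 0 of 5 members were called, where 1.92% of genes were called lower and 0.565% higher. At an unadjusted p below 0.05 there were 2 members, Uhrf1 and Dnmt3b, in opposite directions, and DESeq2 and limma-voom also called 0. The libraries of the 2 groups did not overlap for 5 of 5 members in all 3 comparisons. That was common among all genes too, at 42.3% for DSg and USg, 72.4% for Spc and USg and 71.1% for Spc and DSg.

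**Figure D2:**
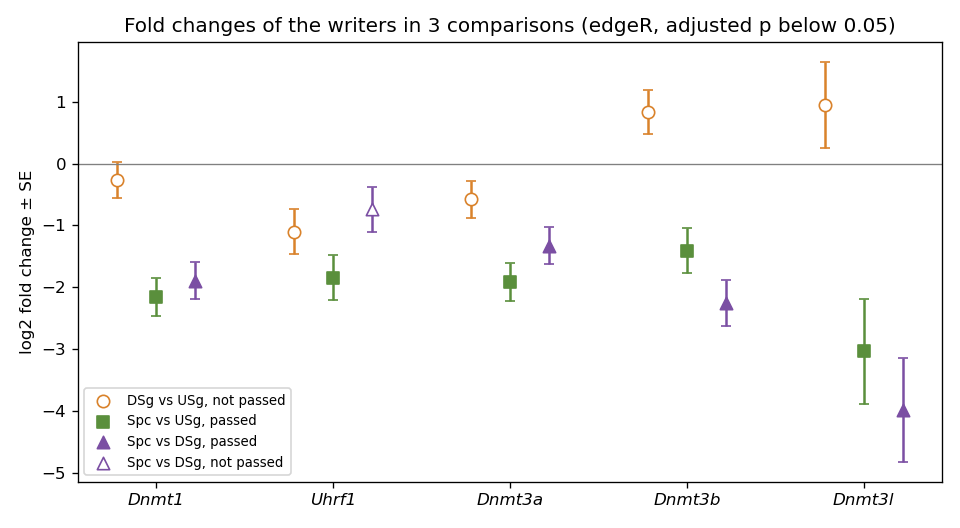
Log2 fold change ± SE (edgeR) of each writer in the 3 comparisons, with filled symbols where the adjusted p was below 0.05. All 5 Spc vs USg values and 4 of 5 Spc vs DSg values are filled and negative, and the DSg vs USg values are open, with Dnmt3b and Dnmt3l above 0 and Dnmt1, Dnmt3a and Uhrf1 below.

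Single libraries mattered for some of these calls. A fit without 1 library leaves its group with a lone library, which is assumed to vary like the others. With Spc 1 left out, the log2 differences from USg were -1.22 for Dnmt3b (adjusted p = 0.233) and -2.35 for Dnmt3l (0.246). Those from DSg were -1.76 for Dnmt1 (0.0511), -1.42 for Dnmt3a (0.199) and -3.20 for Dnmt3l (0.112). With Spc 2 left out, the differences from USg were -1.76 for Dnmt3a (0.0634), -1.63 for Dnmt3b (0.0873) and -4.31 for Dnmt3l (0.0511), and that of Dnmt3a from DSg was -1.13 (0.317). Dnmt3l kept its call against DSg without Spc 2, at -5.19 (0.0191). Dnmt3a relative to DSg also missed the threshold without DSg 1, at -1.13 (0.0699). The falls of Dnmt1 and Uhrf1 relative to USg, and of Dnmt3b relative to DSg, passed under all 17 alternatives.

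Because levels of different genes cannot be compared without transcript length, the balance between members was followed as a share of counts within each library, which is free of library scaling. Dnmt3b made up 43.3% and 46.5% of the combined Dnmt3a and Dnmt3b counts in USg, 61.9% and 73.5% in DSg, and 47.2% and 59.8% in Spc. The 95% exact binomial intervals, which cover counting error only, were 39.2 to 47.4% and 43.9 to 49.1% in USg, 57.8 to 65.8% and 70.9 to 75.9% in DSg, and 42.1 to 52.4% and 54.5 to 64.9% in Spc. Both DSg libraries thus had a larger Dnmt3b share than both USg libraries, with intervals that did not meet, while the 2 Spc libraries spread over the gap between them. Uhrf1 made up 27.3% and 35.8% of the combined Dnmt1 and Uhrf1 counts in USg, 23.6% and 18.7% in DSg, and 38.2% and 36.4% in Spc. DSg had the smallest Uhrf1 share in both libraries. In Spc, where both genes were low, the share was just above that of USg 2 (interval 34.9 to 36.8%). Its Spc intervals were 36.1 to 40.4% and 34.2 to 38.6%. Dnmt3l made up 4.94% and 3.27% of the combined Dnmt3l and Dnmt3b counts in USg, 4.99% and 3.83% in DSg, and 0.562% and 1.81% in Spc. The Spc intervals were wide, 0.0142 to 3.09% in Spc 1 and 0.495 to 4.57% in Spc 2. Those of the line were 2.66 to 8.3% and 2.08 to 4.86% in USg, and 3.03 to 7.68% and 2.7 to 5.26% in DSg. Both Spc shares lay below all 4 line shares. Both Spc intervals met all 4 line intervals, but intervals that meet do not show that shares are alike. Whether counting error covers the gap was not tested. These shares were not tested between groups, as each has 2 libraries.

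**Figure D3:**
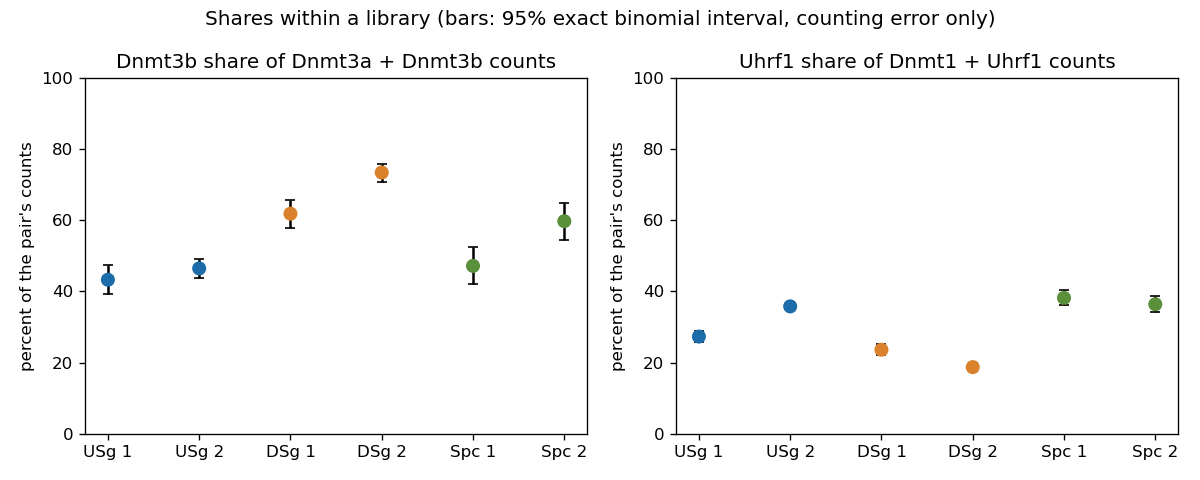
Share of Dnmt3b among Dnmt3a and Dnmt3b counts (left) and of Uhrf1 among Dnmt1 and Uhrf1 counts (right) in each library, in percent, with 95% exact binomial intervals for counting error. The DSg libraries have the highest Dnmt3b shares, 61.9% and 73.5%, and the lowest Uhrf1 shares, 23.6% and 18.7%.

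Across the 6 libraries the profiles of the members differed in the place of DSg, although no member passed between DSg and USg. Likeness was measured as the root mean square difference of log2 CPM after centring each gene on its own mean. Dnmt1 and Dnmt3a were closest (0.27), followed by Dnmt3a and Uhrf1 (0.36), and Dnmt3l and Uhrf1 were farthest apart (1.17). Dnmt1 lay about as near to Dnmt3b (0.49) as to Uhrf1 (0.53), so the members did not form separate sets. Among 10214 genes compared, the nearest to Dnmt1 were Mdga1 (0.07), Large (0.092) and Camk2b (0.109). Nearest to Dnmt3a were Mcm6 (0.089), a subunit of the replicative helicase, Frmd6 (0.114) and Rab11fip1 (0.114). Mcm6 had 458 and 545 CPM in USg, 353 and 295 CPM in DSg, and 145 and 130 CPM in Spc. The genes nearest to Dnmt3b were Kiaa0895l (0.145), Sec14l2 (0.174) and Themis2 (0.176), and those nearest to Uhrf1 were Foxq1 (0.139), Ccm2 (0.142) and Hpd (0.162). For Dnmt3l they were Emid1 (0.202), Tex15 (0.24) and Adcy2 (0.252). Tex15 is needed in mouse for transposon methylation by the piRNA pathway. It had 2542 and 1870 CPM in USg, 4115 and 3831 CPM in DSg, and 397 and 486 CPM in Spc. A function and levels are given only for Mcm6 and Tex15, the nearest genes that also stand in the lists followed below. Those nearest to Dnmt1, Dnmt3b and Uhrf1 are in none of these lists. Nearest genes were chosen by likeness over these same libraries, so an order of groups shared with a member is no separate evidence.

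Genes around the writers were then followed as lists, each described by its counts. Over all genes, 17.9% were called higher and 16.6% lower in Spc relative to USg, 14.8% higher and 11.7% lower in Spc relative to DSg, and 0.565% higher and 1.92% lower in DSg relative to USg. A list with a share of calls near these is no result about the list. The only related methyltransferase measured was Trdmt1, an RNA cytosine methyltransferase with the fold of the Dnmt family. It averaged 13.5 CPM in USg, 11.6 CPM in DSg and 10.6 CPM in Spc, with log2 differences of -0.22 ± 0.42 (DSg vs USg), -0.33 ± 0.41 (Spc vs USg) and -0.11 ± 0.42 (Spc vs DSg) that did not pass.

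Of 10 partners of maintenance methylation tested, 3 fell and 0 rose in Spc relative to USg, with a list median of -0.82. Cdca7l, whose relative Cdca7 activates the remodeller that opens heterochromatin for maintenance, had 24.2 and 23.5 CPM in Spc, against 356 and 286 CPM in USg, a log2 difference of -3.75 ± 0.36 (adjusted p = 0.00025). Ehmt2, a histone H3 lysine methyltransferase, had 149 and 122 CPM in Spc, against 285 and 803 CPM in USg, a log2 difference of -2.01 ± 0.46 (adjusted p = 0.0106). Both passed under all 17 alternatives, although the USg values of Ehmt2 lie far apart. Ns5atp9, the name in the table for Pclaf, which binds the sliding clamp Pcna, fell as well (-2.40 ± 0.62, adjusted p = 0.0172), a call lost without USg 2 or without Spc 2. Relative to DSg, 2 partners fell in Spc and 0 rose, Cdca7l (-2.20 ± 0.34, adjusted p = 0.00249) and the deacetylase Hdac2 (-1.39 ± 0.41, adjusted p = 0.0358), whose call was lost without DSg 1, Spc 1 or Spc 2. In DSg relative to USg, Cdca7l was the 1 partner of 10 that passed, with 134 and 85.9 CPM in DSg, against 356 and 286 CPM in USg (-1.55 ± 0.33, adjusted p = 0.0493). That call was lost with RLE scaling, in the fit of 4 libraries, and without DSg 1, DSg 2, Spc 1 or Spc 2. Cdca7 itself, also in this list, averaged 116 CPM in USg, 77.8 CPM in DSg and 54.5 CPM in Spc. It was not called in any comparison.

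DNA synthesis genes were listed because maintenance methylation follows replication. Of 25 genes of S phase and proliferation, 16 fell and 1 rose in Spc relative to USg, with a list median of -1.28, and 11 fell and 0 rose in Spc relative to DSg, with a median of -0.95. Between DSg and USg 0 of 25 passed, and the median was -0.25. E2f1, a transcription factor of the G1 to S transition, had 10.4 and 11.5 CPM in Spc, against 81.4 and 151 CPM in USg, a log2 difference of -3.41 ± 0.41 (adjusted p = 0.000537). Rrm2, a subunit of ribonucleotide reductase (-3.50 ± 0.63), the licensing factor Cdt1 (-2.95 ± 0.42) and Mcm2, another helicase subunit (-2.48 ± 0.40), also fell in Spc relative to USg and, as with E2f1, passed under all 17 alternatives. The gene that rose was Top2a, which decatenates DNA (1.07 ± 0.28, adjusted p = 0.0192), a call lost without the filter and without USg 2, Spc 1 or Spc 2. Relative to DSg, Cdt1 (-2.56 ± 0.42) and the thymidylate synthase Tyms (-2.38 ± 0.32) fell in Spc under all 17 alternatives. The list's summed level was 3468 and 3740 CPM in Spc, against 4994 to 5770 CPM in the 4 line libraries. The part of DNA synthesis in the writers' values was not tested.

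In the germline silencing list, 14 genes were tested. In Spc relative to USg 4 fell and 1 rose, though the list median was 0.22. Piwil4, the piRNA-binding protein that guides de novo methylation in mouse fetal germ cells, had 8.08 and 8.71 CPM in Spc, against 217 and 226 CPM in USg, a log2 difference of -4.72 ± 0.35 (adjusted p = 0.000111). Tex15 (-2.32 ± 0.35, adjusted p = 0.0014), Morc1, a transposon repressor in mouse germ cells (-3.17 ± 0.68, adjusted p = 0.00741), and the histone demethylase Kdm1b (-1.94 ± 0.33, adjusted p = 0.00237) fell too, and all 4 passed under all 17 alternatives. Setd2, the methyltransferase for lysine 36 of histone H3, rose (1.10 ± 0.32, adjusted p = 0.0293), a call lost without USg 2, Spc 1 or Spc 2. Relative to DSg 4 fell and 2 rose in Spc, with a median of 0.30. Tex15 had 397 and 486 CPM in Spc, against 4115 and 3831 CPM in DSg (-3.17 ± 0.36, adjusted p = 0.000612), and Piwil4 fell too (-3.81 ± 0.34, adjusted p = 0.000257). Kdm1b and Morc1 fell as well, with calls lost without Spc 2 and without DSg 1 or Spc 1. Piwil2, the piRNA-binding partner, went the other way, with 460 and 558 CPM in Spc, against 158 and 106 CPM in DSg (1.95 ± 0.33, adjusted p = 0.0037). Tdrd1, a scaffold of the piRNA pathway, rose too (1.09 ± 0.32, adjusted p = 0.0368), but lost its call with upper quartile scaling and without DSg 2, Spc 1 or Spc 2. None of the 14 passed between DSg and USg.

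Although the Tet genes themselves were not analysed here, genes that act with or after them were. Of 12 genes tested for base excision repair of oxidised methylcytosine and the related Gadd45 proteins, 4 rose and 3 fell in Spc relative to USg, with a median of -0.16, against 17.9% higher and 16.6% lower over all genes. Gadd45a, a stress-induced protein reported to promote demethylation, had 49.1 and 57.5 CPM in Spc, against 12.0 and 7.30 CPM in USg (2.49 ± 0.40, adjusted p = 0.00197). Gadd45g (3.19 ± 0.83, adjusted p = 0.0179), Gadd45b (2.53 ± 0.46, adjusted p = 0.00362) and the repair polymerase Polb (1.89 ± 0.35, adjusted p = 0.00361) were the other genes that rose, and Gadd45b lost its call without Spc 1. The 3 that fell were the glycosylase Neil2, the nick sensor Parp1 and the nuclease Apex1, whose calls were lost without USg 2, without Spc 2, and without USg 2, Spc 1 or Spc 2. Relative to DSg 3 rose (Gadd45a, Gadd45b and Gadd45g) and 2 fell (Neil2 and Parp1) in Spc. Neil2, Parp1, Gadd45b and Gadd45g each lost that call without DSg 1 and without Spc 1, Neil2 also with limma-voom, and Gadd45g also with upper quartile or total-count scaling. Gadd45a passed under all 17 alternatives (2.26 ± 0.40, adjusted p = 0.00435). None of the 12 passed between DSg and USg. Sertoli and stromal markers were mostly higher in Spc as given above, and the part of somatic cells in the Gadd45 values was not tested.

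Of 12 Tet partners and genes of cofactor supply tested, 6 fell and 2 rose in Spc relative to USg, with a median of -1.20. Isocitrate dehydrogenases, which make the 2-oxoglutarate that Tet enzymes consume, went in opposite directions. The cytosolic Idh1 had 35.7 and 34.0 CPM in Spc, against 166 and 128 CPM in USg (-2.08 ± 0.46, adjusted p = 0.00894), and the mitochondrial Idh2 had 30.2 and 37.2 CPM in Spc, against 8.49 and 4.99 CPM in USg (2.36 ± 0.45, adjusted p = 0.00454). Idh2 also rose in Spc relative to DSg (2.87 ± 0.47, adjusted p = 0.00323). These 3 results passed under all 17 alternatives. Idh3a was the other gene that rose relative to USg (1.20 ± 0.31, adjusted p = 0.017), and Cxxc5, Sin3a, Hcfc1, Slc23a2 and Ogt made up the rest that fell, each with a call lost without at least Spc 2. Relative to DSg 3 fell in Spc (Cxxc5, Slc23a2 and Sin3a), each likewise losing its call without Spc 2, and 1 rose. Between DSg and USg 0 of 12 passed.

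Readers of the mark with their relatives, and the supply of methyl donors, made up the remaining lists. The reader list takes in family members, such as Mbd3, whose binding of the mark is not assumed here. Of 7 genes tested in the reader list, 1 rose and 1 fell in Spc relative to USg, shares close to the 17.9% and 16.6% over all genes. They were Zbtb4 (1.47 ± 0.40, adjusted p = 0.0209) and Mbd3 (-1.11 ± 0.36, adjusted p = 0.0399). Relative to DSg 1 rose and 0 fell, Mbd1 (1.11 ± 0.32, adjusted p = 0.0327). These 3 calls were each lost without Spc 1 or Spc 2, that of Mbd1 also without DSg 1 or DSg 2 and with total-count or upper quartile scaling, and that of Mbd3 also in the fit of 4 libraries and without USg 2, DSg 1 or DSg 2. Of 9 genes of methyl donor supply, 1 rose and 2 fell in Spc relative to USg, against the same percentages. Ahcyl2, a relative of the hydrolase Ahcy, had 116 and 118 CPM in Spc, against 36.7 and 29.6 CPM in USg (1.83 ± 0.31, adjusted p = 0.00247), and passed under all 17 alternatives. Mat1a, an enzyme that makes S-adenosylmethionine, and Ahcy, which clears the product of methyl transfer, fell in Spc relative to USg (-2.34 ± 0.61 and -1.08 ± 0.31) and to DSg (-2.78 ± 0.61 and -1.87 ± 0.31). All 4 calls were lost without Spc 1. Between DSg and USg 0 of 7 genes of the reader list and 0 of 9 donor genes passed.

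**Figure D4:**
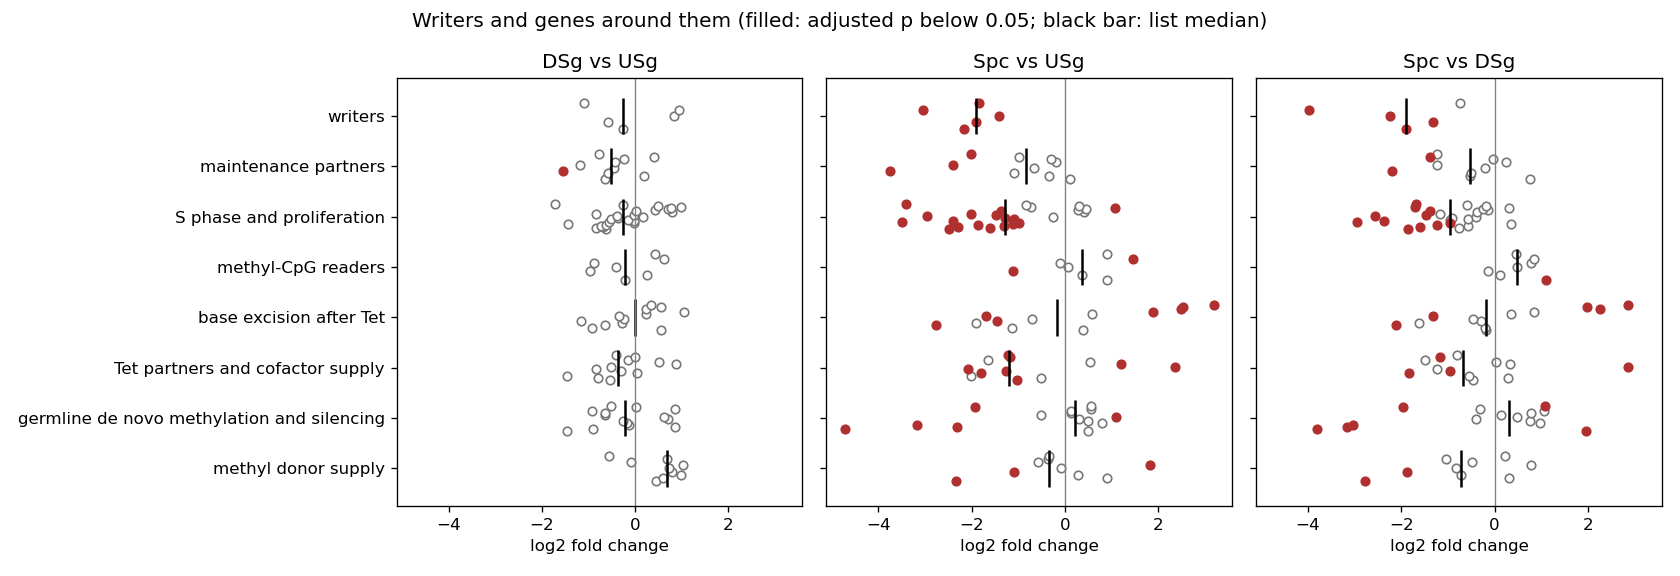
Log2 fold changes of the writers and of the genes in each list around them, 1 point per gene and 1 panel per comparison, filled where the adjusted p was below 0.05, with a black bar at the list median. In Spc vs USg the writers and the S phase genes have medians of -1.91 and -1.28, while the germline silencing list holds the strongest single fall, Piwil4 at -4.72, and a median of 0.22.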

How the data were processed

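The authors deposited raw read counts per gene symbol for 6 RNA libraries, with no normalization, as the whole numbers and unequal column totals show. The submitters' processing notes name the aligners STAR 2.5.3a and Bowtie2 2.2.3, the counting tools Subread 1.4.6 and featureCounts, and also HOMER, Picard 1.127 and edgeR 3.2.4, with builds rn5 and rn6 and no roles. Which aligner, build and strand setting gave the counts is not given in the sources used here. Counts per symbol do not separate isoforms, and overlapping or antisense genes may share reads.

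Counts were filtered (filterByExpr, minimum count 10, minimum total 15), scaled with TMM factors and tested in edgeR 4.0.16 under R 4.3.3 by its two-sided quasi-likelihood F-test, in 1 fit of 6 libraries with 3 residual degrees of freedom. The test draws each gene's spread towards that of the other genes, with 5.88 prior degrees of freedom. Benjamini-Hochberg adjustment ran over 12210 genes, with a threshold of 0.05. Each SE was had by dividing the size of the log2 fold change by the root of F. Levels are CPM with TMM scaling. Intervals on shares are exact binomial 95% intervals.

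Members and lists were chosen with earlier results of these data known. Named list genes are, per list and comparison, up to 4 called genes with the largest change that reached 5 CPM in 1 of the groups, and genes behind a count of 5 or fewer. Values are given mostly for those whose call held under all alternatives, a choice made after their values were seen. Up to 3 nearest genes per member were taken among genes of at least 5 CPM. Of the listed genes, 1 was matched by an older name. Promoter windows are from RefSeq, and their coordinates refer to GRCr8, not to the builds above. The alternatives tried were total-count, upper quartile and RLE scaling, a filter of 5 CPM or none, DESeq2 1.42.0, limma-voom (limma 3.58.1), fits of 4 libraries, a replicate block, leaving out each library, the rRNA genes, or USg 1 and DSg 1 together.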

Additional observations from a re-analysis of the deposited data

How the results depend on the processing

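Over 17 alternatives the 15 member results gave 255 values, of which 239 kept their side of the threshold, 10 lost a call, 6 gained one and 0 changed sign. All losses came from leaving out 1 library, as given with the results. Of 77 calls of listed genes around the members, 50 were lost under at least 1 alternative, 15 of them under one that kept all 6 libraries in the fit, and 0 changed sign. Between DSg and USg the count of genes called, 303, was the least fixed. It was 199 with total-count scaling, 1044 without the filter, 781 with DESeq2, 90 in the fit of 4 libraries, 604 with a replicate block, 6327 without USg 1 and DSg 1 together, and 0 to 1501 with 1 library left out (0 without DSg 1 or DSg 2, 1501 without USg 1). Members called there were 0 to 1 with 1 library left out, and 3 without USg 1 and DSg 1 together, namely Uhrf1 (-1.83, adjusted p = 4.84e-06), Dnmt3a (-0.81, 0.0124) and Dnmt3b (0.86, 0.00703). In that fit only the Spc pair gives the spread, which the lone USg and DSg libraries are assumed to share, and it called 8246 genes for Spc vs USg and 8292 for Spc vs DSg. It also called Uhrf1 for Spc vs DSg (-0.44, adjusted p = 0.0444). With 1 library left out, genes called for Spc vs USg were 2258 to 4411 and members 2 to 5, lowest without Spc 2, and for Spc vs DSg genes were 1642 to 4289 and members 1 to 4, lowest without Spc 1. The replicate numbers do not pair the samples by any label. Deviations of same-numbered libraries correlated over 12210 genes at 0.25 for USg and DSg, -0.265 for USg and Spc and 0.011 for DSg and Spc. With the block, 4523 genes were called for Spc vs USg and 3618 for Spc vs DSg, and members called stayed at 0, 5 and 4. Upper quartile scaling moved the median log2 difference of all genes to 0.15 (DSg vs USg), -0.10 (Spc vs USg) and -0.25 (Spc vs DSg), and total-count scaling to 0.16, -0.07 and -0.22, and all members kept their sign. Dnmt1 for DSg vs USg was -0.11 under both, smaller in size than the shift. The cause of these changes was not tested. Fits that leave libraries out change the number of samples and which samples are fitted at once. Depth limits Dnmt3l, with 1 and 4 counts in Spc.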
